A study of Mus musculus with 384 samples.

Results

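The Hmga, Lin28 and Igf2bp genes are 3 small families often called oncofetal, because they are active in embryonic tissue, quiet in most adult tissue and switched on again in many tumours. The 7 members described here were Hmga1, Hmga2, Lin28a, Lin28b, Igf2bp1, Igf2bp2 and Igf2bp3, taken by name from the 49585 genes of the count table. They were followed in mouse mammary cells sorted by flow cytometry onto a plate of 384 wells and read out by Smart-seq2, which copies whole transcripts from their poly(A) tails.

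Embryonic cells came from female skin with its mammary buds at embryonic day 14, from mice carrying Lgr5-EGFP-IRES-CreER, and were sorted as CD49f Hi/Lgr5 Hi. Basal cells (CD24+CD29Hi) and luminal cells (CD24+CD29Lo) came from adult glands of Rosa-tdTomato mice, whose exact age is not given in the sources used here. The sort gated out CD45+, CD31+ and CD140a+ cells, and no knockout or drug is named for any group. The Lgr5 reporter selects the cells in which the Lgr5 locus is active, so the embryonic gate stands for those cells and not for the whole bud. Genotype, age, digestion and sort differed together between the embryonic and adult gates, and their parts in a difference cannot be told apart.

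Single wells with at least 50000 reads on genes, spike-ins left out, were kept, 347 of 376 in all, of which 220 were adult; 10 embryonic, 10 basal and 9 luminal wells fell under that limit. Kept wells held 52500 to 1836609 gene reads, with medians of 697578 (embryonic), 450196.5 (basal) and 525176 (luminal). Each gate also had 1 well of 50 cells (532820 to 621792 reads), and 4 empty wells had 34 to 563 reads, none of them on a member. No animal is named for any well, so each gate counted as 1 sample and no test was made. Intervals are exact 95% intervals that cover counting error only, since amplified reads are not independent molecules. In a check of the gates, all 7 basal markers were at least 2-fold higher in basal than in luminal cells and all 7 luminal markers at least 2-fold lower. Of 7 embryonic bud markers, 6 were at least 2-fold higher in embryonic than in luminal cells, and Msx2 was 2.65-fold higher in luminal cells.

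Some wells went against their gate. Over 10309 genes, members left out, 99.2% of embryonic, 90.7% of basal and 97.3% of luminal cells were most like the 50-cell well of their own gate. Of the others, 2 basal and 2 luminal cells were most like the embryonic well, 8 basal cells the luminal well, 1 luminal cell the basal well and 1 embryonic cell the luminal well. Despite the exclusion of CD140a, 25 embryonic cells (19.7%) had at least 3 of 8 fibroblast markers. Col1a1, a fibrillar collagen chain, stood at 3026 CPM (reads of the gene per 1000000 gene reads) in these 25 cells and at 24.1 CPM in the other embryonic cells. The basal gate was mixed as well. At least 3 fibroblast markers were found in 10 basal cells (9.26%) and in 0 luminal cells. At least 3 endothelial markers were found in 7 basal cells (6.48%), despite the exclusion of CD31. All 8 endothelial markers were at least 2-fold higher in basal cells than in luminal or embryonic cells. Each gate filled its own block of plate rows (mostly K to P for embryonic, A to F for basal and F to K for luminal wells), so plate position and gate could be separated in few wells.

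The families act in 1 well known circuit. The let-7 microRNAs bind messenger RNAs through their seed (bases 2 to 8) and lower their output. Lin28 proteins bind let-7 precursors and block their maturation, while Hmga2, the Igf2bp genes and the Lin28 genes themselves are classic let-7 targets. Hmga1 and Hmga2 are small chromatin proteins that bind the minor groove of AT-rich DNA through AT-hooks and bend it. The Igf2bp proteins coat messenger RNAs, such as those of Igf2, Myc and Actb, and control their stability, transport and translation.

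The pairing between let-7 and the members can be read from their sequences. Of 11 let-7 family names in the RefSeq table (GRCm38.p6), 10 share the seed GAGGUAG, and let-7j carries another. Mature microRNAs have no poly(A) tail and were not measured in these libraries. Shown first are 3 mature let-7 sequences with the seed in capitals, because the seed sets which sites can pair.
mmu-let-7a-5p: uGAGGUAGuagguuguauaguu
mmu-let-7g-5p: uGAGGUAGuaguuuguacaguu
mmu-let-7j: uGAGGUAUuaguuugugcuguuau

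The reverse complement of the seed, CTACCTC, was searched on the transcribed strand of the 3′ UTR of each gene in GENCODE M21 (GRCm38). It was found in the 3′ UTR of all 7 members, against 8.95% of 20996 genes with a 3′ UTR. These 3′ UTRs were longer than most, at 1183 to 6337 bases against a median of 953.5, and among 3′ UTRs of like length (within 20%) the share with a match ran from 7.95% for the length of Hmga1 to 33.8% for that of Igf2bp1. Hmga2, Lin28b and Igf2bp1 had 4 matches each, a number reached by 12 of the 20996 genes. Lin28a had 2 matches, and Hmga1, Igf2bp2 and Igf2bp3 had 1. The 8-base match, with an A after the seed match, was present in 6 of the 7 members, all but Hmga1, against 3.02% of all genes. A match is a description of the letters and not a measured site. The first match of each gene is printed 5′ to 3′ with the seed match in capitals, since these are the stretches through which let-7 could pair with the members.
Hmga2, chr10:120364224-120364247, minus strand: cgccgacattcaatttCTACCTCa
Hmga1, chr17:27563276-27563299, plus strand: ctcctctgttcacaaaCTACCTCt
Lin28a, chr4:134005189-134005212, minus strand: tgcacagcctgttgaaCTACCTCa
Lin28b, chr10:45381022-45381045, minus strand: cacccgggcgggaagtCTACCTCa
Igf2bp1, chr11:95961778-95961801, minus strand: tgctgtgcgaagtaaaCTACCTCa
Igf2bp2, chr16:22059473-22059496, minus strand: aacacacaaataaaagCTACCTCa
Igf2bp3, chr6:49086787-49086810, minus strand: gtgcatttttactcaaCTACCTCa

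Every one of the 7 printed stretches lies within a single exon. In Hmga2 and Lin28b the first match sits close to the stop codon, at bases 58 and 36 of the 3′ UTR, and is the 1 match of the gene that is followed by an A. Igf2bp1 holds its first match at base 1715 and has 3 that are followed by an A.

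**Figure D1:**
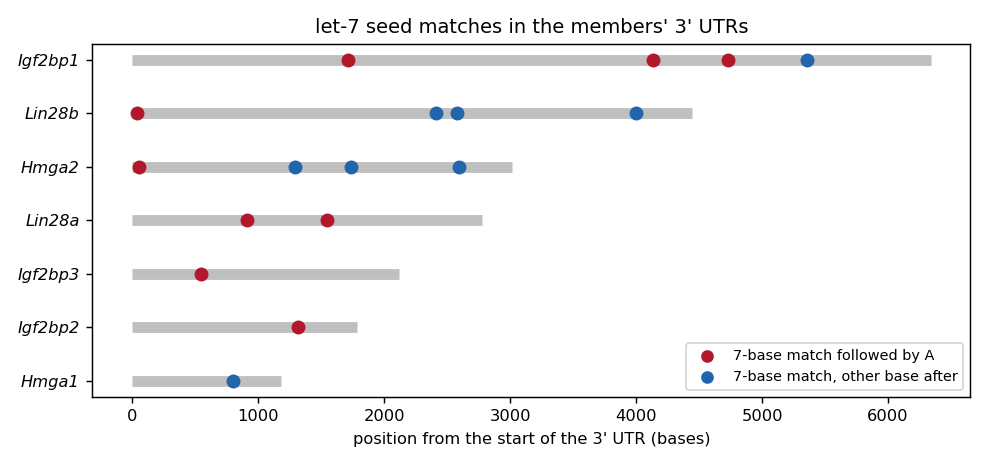
Position of each 7-base let-7 seed match in the 3′ UTR of the 7 genes, in bases from the start of the 3′ UTR; grey bars give the length of the 3′ UTR, red points matches followed by an A and blue points other matches. Igf2bp1, Lin28b and Hmga2 carry 4 points each, Lin28a 2 and the other genes 1.

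Of the 7 members, 6 were measured, at 5 CPM or more in a gate, and all 6 were at least 2-fold higher in embryonic cells than in either adult gate. That background was wide: a ratio of 2-fold or more over basal cells was reached by 33.8% of 12808 measured genes, and over luminal cells by 39.3% of 12679. The median log2 ratio of the 6 members was 6.23 against basal cells, where that of all measured genes was 0.38, and 4.35 against luminal cells, where it was 0.58. Against basal cells each of the 6 passed the minimum of 5 CPM through embryonic cells alone, so the filter fixed their direction. Against luminal cells this held for all but Igf2bp2. The count of 6 and the medians are therefore a description and no test. Lin28a had no read in any kept cell or 50-cell well. Between the adult gates 1 member was measured, Igf2bp2, and it was lower in basal cells, as were at least 2-fold 21.3% of 11885 measured genes.

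Per length of exon, Hmga2 stood highest in embryonic cells at 42.9 CPM per kb, above 90.3% of 11490 measured genes. Igf2bp2 followed at 16.6, Igf2bp3 at 13.2, Hmga1 at 10.6, Igf2bp1 at 9.45 and Lin28b at 1.22 CPM per kb. The median gene stood at 8.03 CPM per kb, so that Lin28b was above 3.80% of measured genes and the others lay above the median. In luminal cells the order was another: Igf2bp2 led with 3.33 CPM per kb, then Hmga1 with 2.26, and the rest were at 0.23 or less. Basal cells had Hmga1 highest, at 0.828 CPM per kb.

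**Figure D2:**
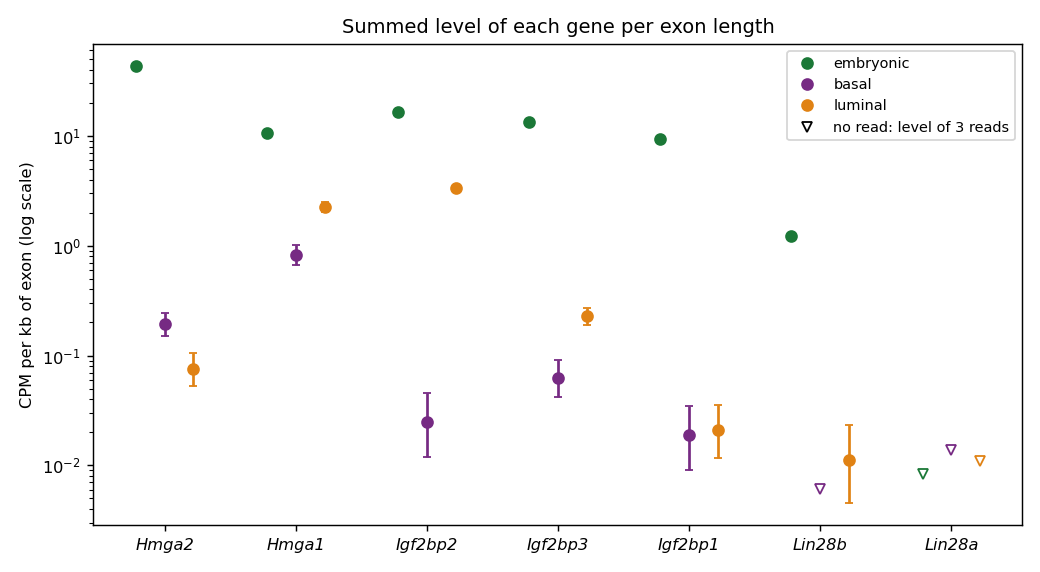
Level of each gene in CPM per kb of exon (log scale), from reads summed over kept cells of each gate; bars are exact 95% Poisson intervals for counting error, and open triangles stand at the level of 3 reads where a gate had none. Hmga2 is the highest of the green points, and Igf2bp2 and Hmga1 are the highest luminal points.

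Hmga2, the AT-hook protein of growth and stem cell self-renewal (chr10:120361275-120476469, minus strand), had the highest embryonic level per length and almost no adult reads. Its summed reads were 26119 (embryonic), 71 (basal) and 35 (luminal), or 290.5 CPM (95% interval 287 to 294), 1.30 CPM (1.02 to 1.64) and 0.512 CPM (0.357 to 0.712). The ratio of embryonic to basal CPM was 223 (177 to 286), the 13th highest log2 ratio of 12808 genes, and that of embryonic to luminal was 567 (408 to 815), the 8th of 12679. In single embryonic cells Hmga2 ran from 0 to 2892 CPM with a median of 143 CPM, and 82.7% of the cells had a read. In each adult gate 5 cells had a read, and the highest adult cell stood at 85.2 CPM, below the embryonic median. The 22 embryonic cells without a read overlapped the adult cells.

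Most adult Hmga2 reads came from the wells that were most like the embryonic 50-cell well. These 4 wells, 2 basal and 2 luminal, held 2.00% of all adult gene reads and 82 of the adult Hmga2 reads (77.4%). One basal well alone held 52 of the 71 basal reads. Without the cells that matched another gate, the ratio of embryonic to basal CPM was 711 (455 to 1181) and that of embryonic to luminal 3941 (1688 to 12138). The order of the adult gates depended on which wells were left out. Hmga2 was 2.54-fold higher in basal than in luminal cells (1.67 to 3.93) with all wells, and without the highest basal cell the ratio was 0.688 (0.372 to 1.24). Without the cells that matched another gate it was 5.54 (2.00 to 18.997), on 19 basal and 5 luminal reads.

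Hmga2 was higher in the embryonic cells with fibroblast markers. The 25 cells with at least 3 such markers had 499.6 CPM (489 to 510), with a median of 299 CPM per cell, and the others had 239.4 CPM (236 to 243), with a median of 120 CPM per cell. After each cell was thinned to 50000 reads, 21 of the 25 and 68.6% of the other cells had an Hmga2 read, so the ranges overlapped. Without the 25 cells the embryonic level was still 184-fold (146 to 236) that of basal cells and 468-fold (336 to 671) that of luminal cells. Within plate rows that held both gates, 8 embryonic cells had 132.8 CPM and the basal cells 1.33 CPM, a ratio of 99.6 (78.3 to 128.5), which is 0.446 times the ratio over all cells.

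Hmga1, the second chromatin protein of the family (chr17:27556497-27563674, plus strand), had a lower level and the smallest contrast with basal cells. It had 2024 embryonic, 96 basal and 328 luminal reads, or 22.5 CPM (21.5 to 23.5), 1.76 CPM (1.43 to 2.15) and 4.80 CPM (4.29 to 5.35). Embryonic cells were 12.8-fold (10.4 to 15.9) above basal and 4.69-fold (4.17 to 5.29) above luminal cells. Per cell it ran from 0 to 126.7 CPM in embryonic cells with a median of 10.5, from 0 to 42.5 CPM in basal and from 0 to 109.01 CPM in luminal cells, both with a median of 0. A read was seen in 70.9% of embryonic, 9.26% of basal and 33.04% of luminal cells, so that Hmga1 was the member seen in most adult cells, and the 3 gates overlapped. Without the highest basal cell, with 35 of the 96 basal reads, the ratio to basal cells was 19.8 (15.4 to 26.01). Without the embryonic cell with the most reads instead, it was 12.2 (9.95 to 15.2).

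Counts of Hmga1 carry a further doubt. Hmga1b (chr11:120762794-120764419), a copy with a single exon, shares 88.97% of its 50-base stretches with Hmga1, so reads could be split between them. Hmga1b had 1496 embryonic, 110 basal and 370 luminal reads, or 16.6, 2.02 and 5.41 CPM, an order of gates like that of Hmga1. Across embryonic cells the log2 levels of the copies went together with r = 0.61, the highest of 7682 genes compared with Hmga1, and Hmga1 also went with the gene reads of the cell (r = 0.52). AI413582, which shares a short stretch of exon with Hmga1 on the opposite strand, was highest in single basal cells at 24.8 CPM against 7.42 in embryonic and 7.46 in luminal cells. In the 50-cell wells its order was another: 33.8 CPM (20.9 to 51.6) in the embryonic, 9.97 in the basal and 16.9 in the luminal well.

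**Figure D3:**
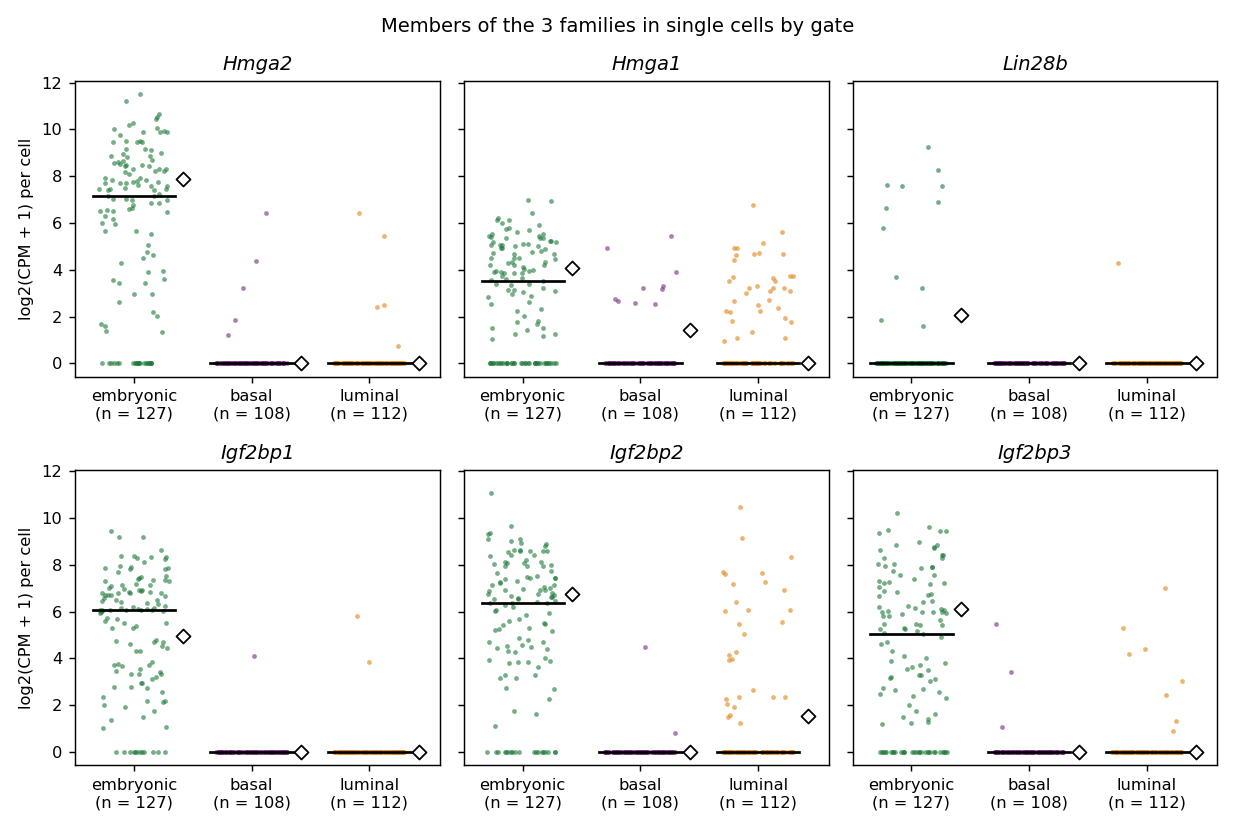
Each point is 1 kept cell, plotted as log2(CPM + 1), with the median of its gate as a black line and the 50-cell well of the gate as a white diamond. Embryonic points of Hmga2 and the 3 Igf2bp genes reach above 8, Lin28b lies at 0 in all but 12 embryonic cells, and Igf2bp2 and Hmga1 have luminal points above 0.

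Igf2bp1 (chr11:95957163-96005940, minus strand), the zipcode-binding protein that carries Actb messenger RNA, was seen in the most embryonic cells of any member. Its reads were 8225 (embryonic), 10 (basal) and 14 (luminal), or 91.5 CPM (89.5 to 93.5), 0.183 CPM (0.0879 to 0.337) and 0.205 CPM (0.112 to 0.344). Embryonic cells ran from 0 to 705 CPM with a median of 65.6, and 90.6% had a read, all but 12. The 24 adult reads fell in 1 basal and 2 luminal cells, which were 3 of the 4 adult wells most like the embryonic 50-cell well. With all wells, the embryonic level was 499-fold (271 to 1041) the basal and 447-fold (266 to 817) the luminal level. Without cells that matched another gate, both adult gates had 0 reads. The embryonic level was then at least 1153-fold the basal and at least 1682-fold the luminal level, by the lower limits of the intervals. Within plate rows A to F the ratio to basal cells was 302 (163 to 633), with 8 embryonic cells, none of them in rows C and D.

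The embryonic 50-cell well gave Igf2bp1, Hmga2 and Igf2bp3 lower values than the single cells, beyond counting error. It held 19 reads of Igf2bp1, 30.6 CPM (18.4 to 47.7), where the single cells had 91.5 CPM. Hmga2 stood there at 238 CPM (201 to 280) and Igf2bp3 at 67.5 CPM (48.7 to 91.3), where the single cells had 290.5 and 108.1 CPM. The intervals of Igf2bp2 (106.1 CPM, 82.1 to 135.04), Hmga1 (16.1 CPM, 7.71 to 29.6) and Lin28b (3.22 CPM, 0.39 to 11.6) included the single-cell level. In a well of pooled cells, fewer cells with a gene and less RNA per cell cannot be told apart. The adult 50-cell wells held 1 basal read of Hmga1 and 1 luminal read of Igf2bp2, and no other member read.

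Igf2bp3 (chr6:49085223-49214957, minus strand), the member best known from tumours, had 9721 embryonic and 28 basal reads. Its levels in embryonic, basal and luminal cells were 108.1 CPM (105.96 to 110.3), 0.513 CPM (0.341 to 0.742) and 1.87 CPM (1.56 to 2.23). The embryonic level was 211-fold (146 to 317) the basal and 57.7-fold (48.5 to 69.3) the luminal level. Per embryonic cell it ran from 0 to 1185 CPM with a median of 31.8, and 76.4% of the cells had a read, while 3 basal and 8 luminal cells had one. A single basal cell held 21 of the 28 basal reads, and without it the ratio was 835 (405 to 2077). Without the embryonic cell with the most reads instead, the ratio to basal cells was 199 (138 to 300) and that to luminal cells 54.7 (45.9 to 65.6). A luminal cell most like the embryonic well held 48 luminal reads, 37.5% of them, and without it the ratio to luminal cells was 91.9 (73.7 to 115.9). Within plate rows F to K, with 16 embryonic cells, none of them in row H, it was 88.2 (73.6 to 106.5).

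Igf2bp3 went the other way from Hmga2 with fibroblast markers. It stood at 72.98 CPM (69.05 to 77.1) in the 25 cells with at least 3 markers and at 116.7 CPM (114.2 to 119.2) in the others. After thinning, 8 of the 25 and 59.8% of the others had a read. Malsu1, a mitochondrial ribosome assembly factor, shares 1529 exon bases with Igf2bp3 on the opposite strand. Malsu1 stood at 44.9, 33.1 and 46.2 CPM in embryonic, basal and luminal cells, and the basal and luminal levels of Igf2bp3 were both far below those of its antisense neighbour.

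Igf2bp2 (chr16:22059009-22163299, minus strand), the paralog that is also active in adult metabolic tissues, was the member that differed most between the adult gates. It had 11031 embryonic, 10 basal and 1687 luminal reads, or 122.7 CPM (120.4 to 124.98), 0.183 CPM (0.0879 to 0.337) and 24.7 CPM (23.5 to 25.9). The embryonic level was 669-fold (364 to 1396) the basal but 4.97-fold (4.72 to 5.23) the luminal level. Luminal cells were 134.6-fold (73.02 to 281) above basal cells. Of the 10 basal reads 9 were in 1 cell, and without it the ratio was 1336 (239 to 52793), on 1 basal read. Per embryonic cell it ran from 0 to 2139 CPM with a median of 82.9, and all but 19 cells had a read. Of the basal cells 2 had a read, and both of them matched another gate. Without cells that matched another gate, basal cells had 0 reads and the embryonic level was at least 1546-fold theirs, by the lower limit of the interval.

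Luminal Igf2bp2 was held by a minority of cells. A read was seen in 30 luminal cells, 26.8% (18.9% to 35.98%), and the 10 with the most reads held 86.8% of the reads. The cell with the most reads, 433, stood at 567 CPM. Another cell, of lower depth, had the highest level at 1419 CPM, within the embryonic range of 0 to 2139 CPM. Without the cell of 433 reads the luminal level was 18.6 CPM. The ratio of embryonic to luminal was then 6.61 (6.24 to 7.02) and the ratio of luminal to basal 101.2 (54.8 to 212). Without the embryonic cell with the most reads instead, the ratio of embryonic to luminal was 4.81 (4.57 to 5.07). In 26 of the 30 cells Igf2bp2 was the 1 Igf2bp gene with a read. After thinning to 50000 reads, 19 luminal and 1 basal cell had a read of Igf2bp2, against 90 embryonic cells. The luminal 50-cell well had 1 read, 1.88 CPM (0.0475 to 10.5), below the 24.7 CPM of the single cells, and the ratio of embryonic to luminal between those wells was 56.6 (9.80 to 2267).

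Lin28b, the let-7 blocking protein (chr10:45376620-45486395, minus strand), was seen in few cells. It had 998 embryonic, 0 basal and 7 luminal reads, or 11.1 CPM (10.4 to 11.8) in embryonic cells. Its reads came from 12 embryonic cells, 9.45% of them (4.98% to 15.9%), which ran from 2.05 to 608 CPM with a median of 108.04. The cell with the most reads was not the one at 608 CPM. It stood at 308 CPM and held 28.7% of the embryonic reads. The embryonic level was at least 164-fold the basal level, by the lower limit of the interval, and 108.4-fold (52.4 to 270) the luminal level. Without the embryonic cell with the most reads the ratio to luminal cells was 78.1 (37.7 to 195). All 7 luminal reads fell in 1 cell, which was most like the embryonic 50-cell well. Without cells matching another gate the embryonic level was at least 204-fold the luminal, by the lower limit of the interval. All 998 embryonic reads were in cells with fewer than 3 fibroblast markers. None was in the other 25.

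Lin28a, the paralog of Lin28b (chr4:134003330-134018841, minus strand), was listed at 0 in every kept well of the 3 gates. In embryonic cells this allows 3 cells with a read (2.36%), which does not bound the cells that express the gene, and a level of 0.0334 CPM at 3 reads. At this depth a lower level was not detectable.

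Shares of cells depend on depth, which was larger in embryonic cells. After each cell was thinned to 50000 reads, a read was seen in 95 embryonic cells for Igf2bp1, 91 for Hmga2, 90 for Igf2bp2, 69 for Igf2bp3, 53 for Hmga1 and 8 for Lin28b. At 5 reads after thinning, Hmga2 was seen in 70 cells, 55.1% (46.04% to 63.9%), Igf2bp2 in 54, Igf2bp1 in 51, Igf2bp3 in 35, Lin28b in 6 and Hmga1 in 4. The order of Hmga2 and Igf2bp1 thus turned with the threshold. In thinned adult cells a read of Hmga2 was seen in 3 basal and 2 luminal cells and one of Hmga1 in 4 basal and 18 luminal cells.

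The members were seen together in embryonic cells. Of Hmga1, Hmga2 and the 3 Igf2bp genes, all 5 had a read in 57 embryonic cells (44.9%) and 4 in a further 42, and no embryonic cell lacked all of them. Of the basal cells 91 (84.3%) had none, and of the luminal cells 50 (44.6%) had none and 48 had 1. A single adult cell had all 5, a luminal one that was most like the embryonic 50-cell well. All 3 Igf2bp genes had a read in 82 embryonic cells (64.6%), 0 basal cells and 1 luminal cell. At 5 reads after thinning, 18 embryonic cells had none of the 5 genes and 53 had 2, so presence at full depth did not mean an even level.

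**Figure D4:**
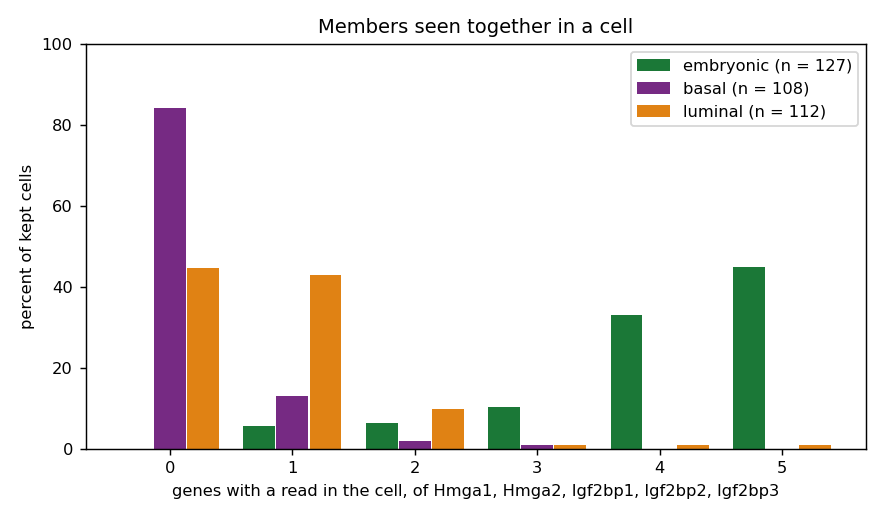
Percent of kept cells in each gate by the number of genes with a read among Hmga1, Hmga2, Igf2bp1, Igf2bp2 and Igf2bp3, not thinned. Embryonic cells pile up at 4 and 5 genes, basal cells at 0, and luminal cells at 0 and 1.

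Levels of the members did not follow each other closely from cell to cell. Across embryonic cells, on log2(CPM + 1), Hmga2 and Igf2bp1 had r = 0.21, Hmga1 and Igf2bp3 r = 0.36, and Igf2bp1 and Igf2bp2 r = 0.08. Sums of cell cycle genes had r = 0.14 with Hmga2 and r = 0.16 with Igf2bp2. These cells share a sort, a plate and depth effects, and at such sparse counts values of this size are no finding. Genes most like each member were given by the highest r among 7682 genes with a read in at least 25% of embryonic cells. For Hmga2 they were Peg3 (0.41), Dcn (0.40) and Sulf2 (0.36), of which Dcn is on the fibroblast marker list. For Igf2bp3 they were D17Wsu92e (0.43), Ptma (0.41) and Igsf9 (0.40), for Igf2bp2 Zranb1 (0.39), Arid4b (0.35) and Csnk1g2 (0.34), and for Igf2bp1 Ndufc1 (0.36), Plpp3 (0.33) and Xpo1 (0.32).

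**Figure D5:**
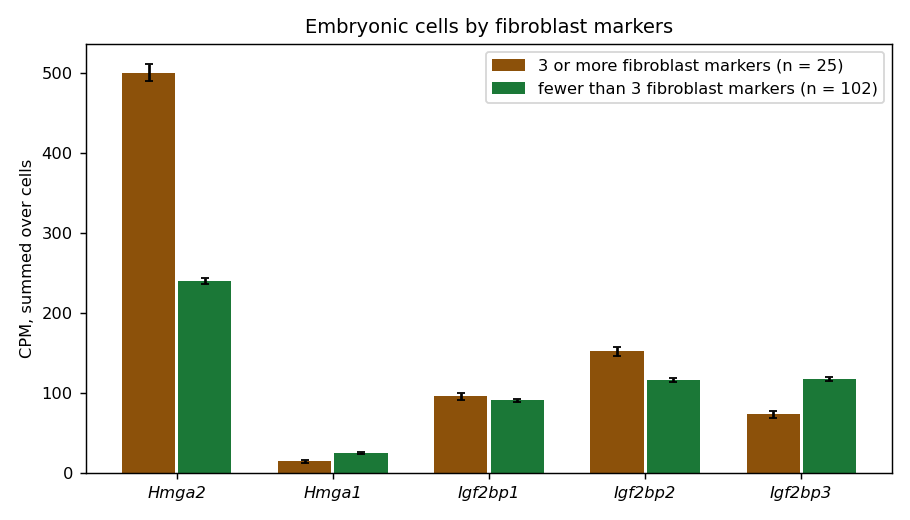
Level of 5 members in CPM, summed over the 25 embryonic cells with at least 3 fibroblast markers and over the other embryonic cells; bars are 95% Poisson intervals for counting error. Hmga2 is higher in the cells with markers (499.6 against 239.4 CPM) and Igf2bp3 is lower (72.98 against 116.7 CPM).

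Other genes of the circuit were mixed. Of 13 measured genes of let-7 processing and Lin28 partners, 4 were at least 2-fold higher and 2 lower in embryonic than in basal cells, and 8 higher and 2 lower than in luminal cells. Among all measured genes, 33.8% were higher and 19.4% lower against basal cells, and 39.3% higher and 17.6% lower against luminal cells. Ago2, the slicer of the silencing complex, stood at 174, 85.2 and 82.9 CPM in embryonic, basal and luminal cells, and Ago1 at 180.0, 104.2 and 34.6 CPM. Tut4, a uridylase that tails let-7 precursors with Lin28, stood at 149, 123.9 and 71.95 CPM. Its paralog Tut7 went the other way at 30.9, 71.5 and 105.6 CPM, as did Trim25, a cofactor of Lin28a, at 15.0, 55.4 and 56.9 CPM.

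Among 21 measured let-7 target genes other than the members, 11 were at least 2-fold higher and 3 lower in embryonic than in basal cells, with a median log2 ratio of 1.34. Against luminal cells 12 were higher and 3 lower, with a median of 1.32. Of all measured genes, 33.8% were higher and 19.4% lower against basal cells, and 39.3% higher and 17.6% lower against luminal cells. Ccnd2, a D-type cyclin, had the highest level at 3032 CPM in embryonic cells, against 81.8 CPM (basal) and 6.51 CPM (luminal). Nras stood at 320 CPM, 73.5 and 177 CPM. The 3 lower genes were the same in both comparisons, namely Thbs1, Myc and Irs2, the last 2 named after their values were seen. Thbs1, an adhesive matrix protein, stood at 35.01, 1362 and 391 CPM, and Myc at 16.1, 250.1 and 93.1 CPM. Of the 22 genes listed, 14 held a 7-base seed match in the 3′ UTR. Ccnd2, Thbs1 and Myc were among those without one.

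Known cargoes of the Igf2bp proteins were mixed. Of 9 measured, 4 were at least 2-fold higher and 1 lower in embryonic than in basal cells, and 3 higher and 2 lower than in luminal cells. For all measured genes these shares were 33.8% and 19.4% against basal cells, and 39.3% and 17.6% against luminal cells. Igf2, the fetal growth factor whose messenger RNA gave the family its name, stood at 729, 2.20 and 1.08 CPM (embryonic, basal, luminal), and the imprinted RNA H19 at 939, 2.82 and 2.02 CPM. Both passed the minimum of 5 CPM through embryonic cells alone, so the filter fixed their direction. Actb stood at 4972, 5064 and 4264 CPM, within 1.17-fold between gates for the embryonic comparisons. Cd44, an adhesion receptor, was lower in embryonic cells at 96.7 CPM against 153 and 348 CPM.

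Plag transcription factors, which act upstream of Igf2, were split. Plagl1 stood at 182, 7.77 and 84.5 CPM (embryonic, basal, luminal) and Plagl2 at 148, 26.6 and 47.6 CPM, while Plag1 was highest in basal cells at 51.3 CPM against 4.60 and 3.09. Gpc3, a fetal proteoglycan, stood at 438, 20.8 and 3.45 CPM, and 4 of 5 measured oncofetal genes outside the 3 families were at least 2-fold higher in embryonic cells in both comparisons. The share of all measured genes was 33.8% against basal and 39.3% against luminal cells. Of these oncofetal genes 2 reached the minimum of 5 CPM in an adult gate. The other measured ones, Igf2 and H19 among them, passed it through embryonic cells alone, so the filter fixed their direction. The count of 4 is therefore a description and no test. Afp and Sall4 had no read in any gate.

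Of 11 high mobility group genes of other families, 7 were at least 2-fold higher in embryonic than in basal cells and 8 than in luminal cells, and none was lower, with median log2 ratios of 1.35 and 1.20. The shares of all measured genes were 33.8% higher and 19.4% lower against basal cells, and 39.3% and 17.6% against luminal cells. Hmgn1 stood at 857, 518 and 519 CPM, Hmgb1 at 425, 273 and 127.9 CPM, and Hmgb2 at 255, 77.8 and 60.3 CPM. Hmgn3 was level between embryonic and basal cells (68.4 and 69.5 CPM), and Hmgn5 between embryonic and luminal cells (45.2 and 45.7 CPM). Of 12 other RNA-binding proteins, 3 were at least 2-fold higher than in basal and 2 than in luminal cells, and none was lower. Both higher counts were smaller shares than those of all measured genes. Hnrnpa2b1 stood at 1334, 708 and 753 CPM and Ythdc1, a nuclear reader of methylated RNA, at 239, 194 and 319.5 CPM. Ythdc1 and Ythdf3 (144, 87.4 and 156 CPM) were the members of that list with a lower level in embryonic than in luminal cells. Of 15 cell cycle genes, 15 were at least 2-fold higher than in basal cells and 14 than in luminal cells, all but Pcna, which stood at 249, 55.9 and 170.0 CPM. An adult gate reached the minimum of 5 CPM for 9 of the 15, and for the rest the filter fixed the direction. Top2a stood at 320, 1.28 and 2.91 CPM and Rrm1 at 229.8, 91.96 and 31.2 CPM. These genes differed between the gates alongside the members, and their part in the members' ratios was not tested.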

How the data were processed

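Read counts per gene and well were used as the authors deposited them, in 1 table of 384 wells with 49585 genes and 92 spike-ins, and no column was left unused. Per the submitters' processing notes the tools were cutadapt 1.13, STAR 2.5.2b and HTSeq 0.6.0 with GRCm38. Which step each tool did, its options, the annotation and the strand mode: not given in the sources used here. Overlapping genes may therefore share reads.

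Wells were grouped by title and sort label, and 1 well whose labels name different gates was left out of comparisons. Kept cells numbered 127 embryonic, 108 basal and 112 luminal. Reads were summed over kept cells of a gate and scaled to its gene reads (CPM). A prior of 1 CPM was added before log2 ratios, measured meant 5 CPM or more in either gate, and a call was a ratio of at least 2-fold with no test. Folds are plain CPM ratios, given with exact conditional intervals; shares have Clopper-Pearson intervals. No doublet caller was run. Symbols, positions and 3′ UTRs came from GENCODE M21, with 43749 identifiers matched in full, 5577 without the version and 259 not matched. Fibroblast markers counted at 5 reads after thinning.

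Members and lists were chosen with earlier results of these data known. All members were named, with Hmga1b, the 3 measured genes of the highest level in each list, list members against its median where these were 3 or fewer, and the 3 genes most like each member. One gene that this rule names is not reported here. The calling step was tested on simulated data. Python 3.11.15, numpy 2.4.6, pandas 2.3.3, scipy 1.17.1, R 4.3.3 and edgeR 4.0.16 (TMM factors) were used. Alternatives were other scalings, priors, filters, cell subsets, plate rows and the 50-cell wells. Leaving out the highest cell of 1 gate alone, the one with the most reads of the gene, was chosen after seeing the data.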

Additional observations from a re-analysis of the deposited data

How the results depend on the processing

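All 6 measured members kept a higher embryonic level against both adult gates in the 16 alternatives, and the counts of 6 did not change by more than 1.5 times. The count of members at least 2-fold lower in basal than in luminal cells was 1; it was 2 with no minimum level, a total that leaves out the 100 top genes, or scaling by TMM, median-of-ratios or spike-ins, where Hmga1 passes the minimum, and 0 in the wells of 50 cells, where Igf2bp2 had 1 read. Spike-in scaling moved the median log2 ratio of all genes by 1.37 (embryonic against basal), 0.55 (embryonic against luminal) and -0.88 (basal against luminal); median-of-ratios scaling moved it by -0.40, -0.56 and -0.15, TMM by -0.34, -0.51 and -0.15. Of the calls, 63.5%, 69.1% and 57.03% were higher in the first gate, against 89.8%, 80.6% and 26.8% with spike-ins and 50.3%, 52.6% and 51.6% with median-of-ratios. The lowest log2 ratios of Hmga2 and Igf2bp1 to basal cells were 5.55 and 4.22, with a prior of 5 CPM. Depth limits Lin28a and the adult levels, which rest on few reads. No paired analysis was possible because the labels give no replicate numbers.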

Other observations

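The well titled as a luminal cell but sorted under the embryonic gate had 774060 gene reads and none on a member.

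Across all genes outside the members, a 7-base let-7 seed match was held by 12.1% of 3827 genes at least 2-fold higher in embryonic than in basal cells, by 10.2% of 2217 lower genes and by 9.66% of 5691 others, with median 3′ UTRs of 1278, 1178 and 1244 bases. Against luminal cells the shares were 11.4% of 4489, 9.83% of 2004 and 9.96% of 5143 genes, with median 3′ UTRs of 1331, 1101 and 1199 bases. Per kb of 3′ UTR, higher, lower and other genes had 0.0715, 0.0715 and 0.0680 matches against luminal cells. Against basal cells they had 0.0811, 0.0710 and 0.0616 matches per kb. All 7 members held a match, and these shares give the range among other genes.

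The gene most like Igf2bp2 across luminal cells, among 5536 genes, was Plagl1 (r = 0.38), followed by Pigu (0.36) and Cenpc1 (0.35). Luminal cells were chosen for this after the values of Igf2bp2 were seen. Of the 10 luminal cells with the highest Igf2bp2 level, the 1 with reads of Hmga2 and Igf2bp1 was most like the embryonic 50-cell well.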
